A study of Mus musculus with 8 samples.

Results

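The plasminogen activator system was read here through 5 genes, Plat, Plau, Plaur, Serpine2 and Serpini1, taken by symbol from a deposited table of 24883 gene rows. Each symbol stood in a single row. The table covers the visual cortex of adult C57BL/6J mice that had received a locked nucleic acid (LNA) oligonucleotide into the cortex on postnatal day 122, with tissue harvested on postnatal day 129, 7 days later. The oligonucleotide had a scrambled sequence in 4 control samples (scrambled) and was complementary to miR-29a in 4 treated samples (anti-miR-29a), so both groups had been injected and there was no uninjected group. Whether each sample is a single animal or a pool is not in the labels, and the p-values reflect only variation among these 8 samples, some of which may be technical.

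Plat encodes tissue plasminogen activator (tPA) and Plau encodes urokinase (uPA), serine proteases that cut the precursor plasminogen into plasmin. Plaur encodes the receptor that holds urokinase at the cell surface. Serpine2 (protease nexin-1) and Serpini1 (neuroserpin) encode inhibitors of the serpin family, which trap a protease by offering a loop as bait. Serpine2 blocks thrombin, urokinase, tPA and plasmin and is made largely by glia, whereas Serpini1 is made by neurons and acts mainly on tPA. In mice, tPA takes part in the shift of eye preference that follows closure of an eye, which makes the balance of activators and serpins a topic in visual cortex plasticity.

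The microRNA that was targeted belongs to a family whose members share the seed, bases 2 to 8 of the mature strand, which pairs with target RNAs. The 3 mature sequences are shown from the RefSeq table for GRCm38.p6, 5′ to 3′, with the seed in capitals, because the search for sites in the 5 genes rests on it.
mmu-miR-29a-3p: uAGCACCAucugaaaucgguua
mmu-miR-29b-3p: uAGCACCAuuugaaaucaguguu
mmu-miR-29c-3p: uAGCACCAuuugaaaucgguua
The seed letters were identical in the 3, so a site for one is a site for all by this measure.

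None of the 5 genes held a full seed match in its 3′ UTR. The motif searched was TGGTGCT on the transcript strand, in the longest 3′ UTR among a gene's protein-coding transcripts in GENCODE M21 (GRCm38, the assembly of mm10). These 3′ UTRs measured 738 nt for Plat, 935 nt for Plau, 496 nt for Plaur, 808 nt for Serpine2 and 2744 nt for Serpini1. Among 13159 tested rows with a 3′ UTR, whose median length was 1228 nt, 15.8% held the motif. The shorter motif GGTGCT, the reverse complement of seed positions 2 to 7 and part of TGGTGCT, was present in 34.2% of these 3′ UTRs, and TGGTGC, for positions 3 to 8, in 32.4%. Plau alone of the 5 held a shorter match, GGTGCT at 2 places, shown with the match in capitals.
Plau site 1, chr14:20842631-20842636, plus strand: cacaggcctgGGTGCTggccatccag
Plau site 2, chr14:20842861-20842866, plus strand: gtattgtgagGGTGCTtgtccaatat
A match is a description of letters and not a shown site of binding, and the lack of one says only that the letters are not in this window.

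Values are FPKM (fragments scaled by library size and by the length of the transcript), so levels can be set side by side between genes. All 5 genes passed the filter for testing, an average over all libraries of 0.5 FPKM or more, which 13912 rows met. Plaur met it through the anti-miR-29a libraries, since its scrambled mean lay under that value. Differences between groups were tested with limma on log2(FPKM + 0.1), with Benjamini-Hochberg adjustment over all 13912 rows and a threshold of 0.05. Because of the added 0.1, ratios of scarce transcripts come out smaller than they are.

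The libraries were similar in coverage. Between 12538 and 12769 rows stood at 1 FPKM or more in each, and the spacing of low values put their depth at 0.982 to 1.17 of scrambled replicate 1. These depths are rough, since only 26.8 to 36.3% of the low values compared lay on the assumed spacing. Markers of excitatory neurons summed to 1449 to 1512 FPKM in scrambled and 1390 to 1493 FPKM in anti-miR-29a libraries, with Camk2a, a kinase of excitatory synapses, at 778.7 ± 39.4 and 758.9 ± 37.0 FPKM (SD, n = 4). Of these 5 markers 1 was higher (all tested rows 56.6%) and 4 were lower. At an unadjusted p under 0.05, 1 was lower (limma; all tested rows 3.18%), and 1 was lower without overlap (all tested rows 2.29%). The list's median against its scrambled mean was -0.045 to 0.039 log2 units in scrambled and -0.18 to -0.060 in anti-miR-29a libraries. Choroid plexus markers summed to at most 2.08 FPKM in any library. Along the first 3 principal components of 12593 genes, a different library stood apart each time, scrambled replicate 2 at 34.4 against -15.9 to 10.04 for the others, scrambled replicate 3 at 34.7 against -13.0 to 4.46 and anti-miR-29a replicate 3 at 32.6 against -15.8 to 3.92. On the first component the groups also did not overlap, with scrambled libraries at -2.003 to 34.4 and anti-miR-29a libraries at -15.9 to -7.75. Differences without each of the libraries that stood apart are given with each gene.

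The serpins were the abundant part of the system and the activators the scarce part. Serpine2 averaged 63.8 FPKM and Serpini1 62.6 FPKM over the 8 libraries, ranks 930 and 949 of 13912 tested rows. Plat averaged 8.30 FPKM at rank 6262, Plau 1.24 FPKM at rank 12274 and Plaur 0.587 FPKM at rank 13651. The ranges of Serpine2 (54.3 to 75.6 FPKM) and Serpini1 (58.3 to 64.3 FPKM) overlapped, as did those of Plau (0.671 to 1.95 FPKM) and Plaur (0.195 to 1.27 FPKM). Plat, between 6.18 and 11.003 FPKM, was separate from the genes on either side of it in this order. The summed FPKM of the 2 serpins was 11.6 to 16.6 times that of the 2 activators in scrambled libraries and 10.7 to 14.8 times in anti-miR-29a libraries.

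**Figure D1:**
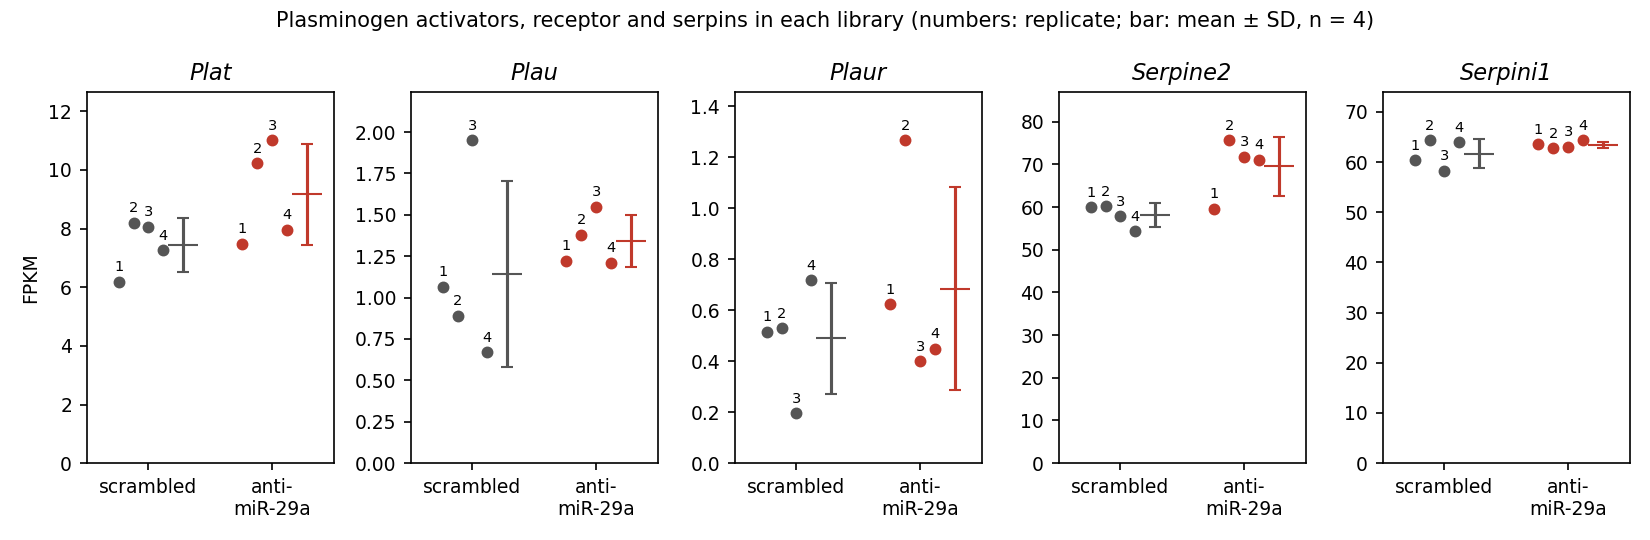
FPKM of Plat, Plau, Plaur, Serpine2 and Serpini1 in each library, with the replicate number above each point and the group mean ± SD (n = 4) to its right; axes start at 0 and differ between panels. Serpine2 in anti-miR-29a replicates 2, 3 and 4 lies at 71.1 to 75.6 FPKM, above all scrambled libraries, while replicate 1 lies among them at 59.6 FPKM.

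The comparison of the groups asked whether transcripts of this system differ when miR-29a is blocked. None of the 5 genes passed, against 0.0144% of all tested rows (2 of 13912) that did. At an unadjusted p under 0.05, limma counted Serpine2 alone, 1 of 5, where 7.54% of all tested rows were counted as higher and 3.18% as lower. The groups overlapped in all 5, whereas they did not in 6.31% of tested rows, 4.02% as higher and 2.29% as lower. The log2 differences ran from 0.041 to 0.38, beside a median of 0.026 over all rows, of which 56.6% were positive. Plaur passed the filter through the group in which it was higher, so the shared sign of the 5 is not read as a result.

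Among the activators, Plat read 6.18, 8.20, 8.06 and 7.27 FPKM in scrambled replicates 1 to 4. In anti-miR-29a replicates 1 to 4 it read 7.48, 10.2, 11.003 and 7.96 FPKM. Anti-miR-29a replicates 2 and 3 lay above every scrambled library, whereas replicates 1 and 4 lay inside the scrambled range. The group levels were 7.43 ± 0.925 and 9.16 ± 1.71 FPKM (SD, n = 4), a log2 difference of 0.29 with a standard error of 0.14. The ratio on this scale was 1.22, with a 95% interval of 0.981 to 1.52 (limma, adjusted p = 0.501). An exact two-sided permutation test over the 70 relabellings gave p = 0.2. Leaving out a library moved the difference between 0.20, without anti-miR-29a replicate 3, and 0.38, without anti-miR-29a replicate 1. Removing scrambled replicate 2 gave 0.34, and removing scrambled replicate 3 gave 0.33. Plat lies on the plus strand of chromosome 8 at 22757727 to 22782844 (GRCm38).

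Plau read 1.06, 0.889, 1.95 and 0.671 FPKM in scrambled replicates 1 to 4 and thus varied widely in the control group. The anti-miR-29a libraries were close together at 1.22, 1.38, 1.55 and 1.21 FPKM, all inside the scrambled range. The means were 1.14 ± 0.561 and 1.34 ± 0.159 FPKM (SD, n = 4), and the log2 difference of 0.31 had a 95% interval of -0.35 to 0.96 (limma, adjusted p = 0.742; exact permutation p = 0.371). Scrambled replicate 3, the highest of the 8 libraries, weighed on this value. The difference was 0.58 without it (limma, unadjusted p = 0.0355, adjusted p = 0.408) and 0.11 without scrambled replicate 4, the lowest library. Removing scrambled replicate 2 gave 0.23, and removing anti-miR-29a replicate 3 gave 0.24. Plau lies on the plus strand of chromosome 14 at 20836660 to 20843385.

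Plaur, the urokinase receptor, read 0.515, 0.529, 0.195 and 0.718 FPKM in scrambled replicates 1 to 4. Its anti-miR-29a values were 0.623, 1.27, 0.401 and 0.449 FPKM. Only anti-miR-29a replicate 2 lay above the scrambled range, and the other 3 fell within it. The log2 difference was 0.38 with a 95% interval of -0.62 to 1.39, so both a lower and a higher level fall inside it (limma, adjusted p = 0.793; exact permutation p = 0.486). The value was 0.078 without anti-miR-29a replicate 2, and 0.083 once scrambled replicate 3 was removed, the lowest library. Removing scrambled replicate 2 gave 0.45, and removing anti-miR-29a replicate 3 gave 0.56. The residual SD of Plaur was 0.64 log2 units, larger than that of most rows (percentile 94.4 of tested rows).

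Serpine2 had the smallest p of the 5 genes. It read 59.96, 60.3, 57.9 and 54.3 FPKM in scrambled replicates 1 to 4. In anti-miR-29a replicates 1 to 4 it read 59.6, 75.6, 71.8 and 71.1 FPKM. Anti-miR-29a replicates 2, 3 and 4 lay above every scrambled library, while replicate 1 lay below 2 of them. The group levels were 58.1 ± 2.74 and 69.5 ± 6.89 FPKM (SD, n = 4), a log2 difference of 0.25 with a standard error of 0.074. The ratio was 1.19 with a 95% interval of 1.06 to 1.34, and the unadjusted p of 0.00645 did not hold over all rows (limma, adjusted p = 0.273). The exact permutation test gave p = 0.0857, where the smallest possible value is 0.0286.

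The difference in Serpine2 did not rest on a single library in size. Leaving out each of the 8 in turn gave log2 differences of 0.21 to 0.33, with an unadjusted p under 0.05 in 8 of 8 fits and an adjusted p of 0.138 to 0.48 (limma). These fits share most of their libraries, so their count is not repeated evidence. The highest difference came without anti-miR-29a replicate 1. Without scrambled replicate 2, scrambled replicate 3 or anti-miR-29a replicate 3, the libraries that stood apart on the components, it was 0.27, 0.25 and 0.24. Serpine2 lies on the minus strand of chromosome 1 at 79794197 to 79861180.

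Serpini1 was among the steadiest genes of the table. It read 60.3, 64.3, 58.3 and 63.9 FPKM in scrambled replicates 1 to 4. The anti-miR-29a values were 63.6, 62.8, 63.0 and 64.3 FPKM, all inside the scrambled range. The log2 difference was 0.041, standard error 0.047 (limma, adjusted p = 0.792; exact permutation p = 0.4), and the 95% interval of the ratio ran from 0.957 to 1.11. Its residual SD was 0.050 log2 units, smaller than in all but 2.36% of tested rows. The sign of this difference depends on the scaling, since it was -0.0052 under quantile normalization. Removing scrambled replicate 2 gave 0.061, removing scrambled replicate 3 gave 0.013 and removing anti-miR-29a replicate 3 gave 0.043. Serpini1 lies on the plus strand of chromosome 3 at 75557547 to 75643495, and no other annotated gene shares exon bases with any of the 5.

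**Figure D2:**
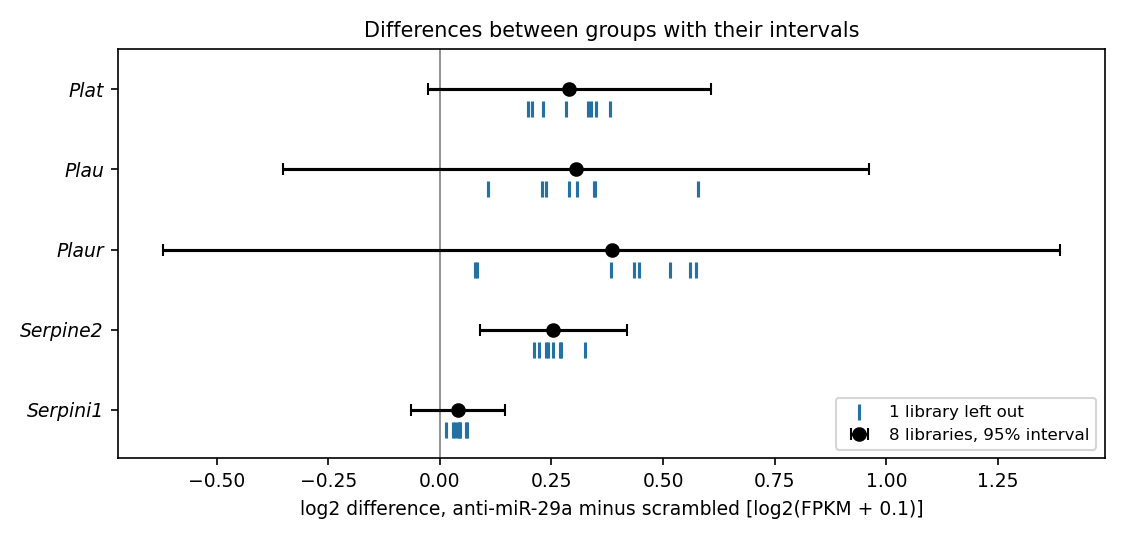
Log2 difference of each gene, anti-miR-29a minus scrambled, with its 95% interval over the 8 libraries (black) and the values with 1 library left out (blue ticks below). The interval of Serpine2, 0.089 to 0.42, lies above 0 without adjustment for the 13912 rows tested, and those of the other 4 genes include 0.

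Because the serpins act on the activators, their levels were also set against each other within each library, as a description without a test. Plat stood at 0.103 to 0.139 of Serpine2 in scrambled and 0.112 to 0.153 in anti-miR-29a libraries, with means of 0.128 ± 0.0168 and 0.131 ± 0.0175 (SD, n = 4). Against Serpini1 it stood at 0.120 ± 0.0157 and 0.145 ± 0.0282. Serpine2 exceeded Serpini1 in 0 of 4 scrambled libraries and in 3 of 4 anti-miR-29a libraries, at ratios of 0.850 to 0.994 and 0.938 to 1.20. Whether a ratio passes 1 depends on the transcript lengths behind the FPKM, for which the annotation is not stated. Plau exceeded its receptor Plaur in 7 of 8 libraries.

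The genes that followed each of the 5 most closely over the 8 libraries were listed by Pearson correlation of log2 values among 12714 genes that averaged 1 FPKM or more. With so few libraries high values arise in number, and 13 to 50 genes reached 0.9 or more for each of the 5, so the names are a description only. For Serpine2 they included Eif2b5 (r = 0.973), a subunit of a translation initiation factor, and Chst2 (0.963), a sulfotransferase with a log2 difference of 0.23 (limma, adjusted p = 0.386). For Plat they were Sbds, Baalc and Nudt9, at 0.982, 0.962 and 0.961. For Plau they were Srrm3, Fto and Rbm8a, at 0.964, 0.962 and 0.962. For Plaur they were Grik1, Commd9 and Ttc28, at 0.988, 0.959 and 0.952, and for Serpini1 Dld, Hist2h2aa1 and Hace1, at 0.946, 0.943 and 0.938. Hist2h2aa1 belongs to a histone family of near-identical copies, so its value is uncertain.

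The rest of the system was followed in 5 further lists of 82 genes, of which 57 were tested. None passed over all rows (limma). At an unadjusted p under 0.05, 11 were higher and 5 lower, beside 7.54% and 3.18% of all tested rows. The groups did not overlap in 3 that were higher and 3 that were lower, beside 4.02% and 2.29% of all tested rows. The median log2 difference over the 57 was -0.0061, beside 0.026 over all tested rows.

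Plasminogen itself was barely detected as a transcript. Plg was listed at 0 in 4 of 8 libraries and at 0.0644 to 0.223 FPKM in the others. Serpinb2, Cpb2 and the fibrinogen chains Fga, Fgb and Fgg were listed at 0 in all 8. Serpinf2, the plasmin inhibitor, was below the filter at 0.146 ± 0.0747 and 0.694 ± 0.603 FPKM (SD, n = 4), with 1.48 and 0.836 FPKM in anti-miR-29a replicates 2 and 4. Of 9 fibrinolysis regulators 2 were tested. A2m, a broad protease trap, differed by 0.86 and Thbd, the thrombin-binding thrombomodulin, by 0.24 log2 units (limma, adjusted p = 0.479 and 0.768).

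Among surface receptors and ligands of the system, 19 of 21 were tested, 4 were higher and 2 lower at an unadjusted p under 0.05 (all tested rows 7.54% and 3.18%), and the median was -0.10. S100a10, which with Anxa2 forms a docking site for tPA and plasminogen, read 22.7 ± 3.10 and 27.9 ± 3.11 FPKM (limma, adjusted p = 0.376), and Anxa2 read 5.31 ± 1.42 and 7.18 ± 1.19 FPKM (limma, adjusted p = 0.432). Itgb1, an integrin subunit, differed by 0.35, and Vtn, the matrix protein vitronectin that binds the urokinase receptor, by 0.25 log2 units (limma, adjusted p = 0.337 and 0.39). Sorl1, an endocytic receptor, read 17.0, 19.4, 17.2 and 22.6 FPKM in scrambled and 10.1, 16.6, 15.5 and 15.1 FPKM in anti-miR-29a libraries. All 4 anti-miR-29a values of Sorl1 lay below all scrambled ones, and the groups differed by -0.42 log2 units (limma, adjusted p = 0.381). Its exact permutation p of 0.0286 follows from that lack of overlap and adds nothing to it. The groups also did not overlap for Lrp8, a receptor of reelin, at 10.5 ± 0.647 and 9.27 ± 0.307 FPKM (limma, adjusted p = 0.443). Lower without overlap were 2 of the 19 tested genes of this list, beside 2.29% of all tested rows. Lrp1, which clears complexes of serpins and activators from the cell surface, did not pass and read 35.6 ± 0.933 and 33.2 ± 3.29 FPKM.

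Of 23 reported substrates of plasmin or the activators 16 were tested, 4 of them higher and 3 lower at an unadjusted p under 0.05 (all tested rows 7.54% and 3.18%), with a median of -0.013. Mmp2, a gelatinase, read 1.12, 0.496, 0.711 and 1.05 FPKM in scrambled and 1.25, 1.88, 2.54 and 2.37 FPKM in anti-miR-29a libraries. The groups did not overlap, and they differed by 1.17 log2 units (limma, adjusted p = 0.234). Reln, a large matrix protein cut by tPA in biochemical assays, read 4.99 ± 0.720 and 3.77 ± 0.236 FPKM, lower without overlap (limma, adjusted p = 0.313). Grin2b, a subunit of the NMDA receptor, differed by -0.64 log2 units (limma, adjusted p = 0.36). Further genes with an unadjusted p under 0.05 were the membrane protease Mmp14 at 0.53, the growth factor Tgfb1 at 0.35 and Pdgfc, a growth factor that tPA activates, at -0.67 log2 units.

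Full seed matches were present in 10 of the 57 tested genes of these lists, 17.5%, beside 15.8% of all searched rows. The sites of Mmp2, Itgb1, Grin2b, Lrp1 and Pdgfc are shown because these genes have values above, with the match to TGGTGCT in capitals.
Mmp2, chr8:92852923-92852929, plus strand: tgggctgcccTGGTGCTccactcttct
Itgb1, chr8:128732875-128732881, plus strand: ctttaattccTGGTGCTcctttatcac
Grin2b site 1, chr6:135725807-135725813, minus strand: gaccctgagcTGGTGCTgagaagcata
Grin2b site 2, chr6:135719800-135719806, minus strand: attttctcttTGGTGCTattctcatat
Lrp1, chr10:127600860-127600866, minus strand: ggaaatagggTGGTGCTttttctagag
Pdgfc, chr3:81213500-81213506, plus strand: cttccttgtaTGGTGCTagagcttagc
Genes with a site stood on both sides of 0, Mmp2 at 1.17, Itgb1 at 0.35, Lrp1 at -0.10, Grin2b at -0.64 and Pdgfc at -0.67 log2 units. The other tested genes of these lists with a site lay closer together, at -0.098 to 0.19 log2 units.

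In the thrombin system and other brain serine proteases, 10 of 14 genes were tested and the median was 0.0047. Htra1, a secreted serine protease, read 56.7 ± 3.74 and 71.1 ± 10.4 FPKM and was the single member with an unadjusted p under 0.05 (limma, adjusted p = 0.311; all tested rows 7.54% as higher). F2, the thrombin precursor, was listed at 0 in 6 of 8 libraries. F2r, a receptor cut by thrombin, read 0.902 ± 0.365 and 0.546 ± 0.115 FPKM, and F3, tissue factor, 17.9 ± 3.69 and 20.8 ± 2.18 FPKM, neither passing. Furin, a proprotein convertase, differed by 0.16 log2 units (limma, adjusted p = 0.613).

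Other serpins had a median of 0.39 over 10 tested genes of 15, with 2 higher at an unadjusted p under 0.05 (all tested rows 7.54%). The list's median against its scrambled mean was 0.36, -0.26, 0.038 and -0.19 in scrambled replicates 1 to 4. In anti-miR-29a replicates 1 to 4 it was 0.39, 0.56, 0.18 and 0.18. Serpinh1, a collagen chaperone that inhibits no protease, read 6.26 ± 1.08 and 10.2 ± 2.02 FPKM without overlap (limma, adjusted p = 0.22). Serpinf1, a secreted factor also without inhibitor activity, read 7.04 ± 0.887 and 9.51 ± 1.57 FPKM (limma, adjusted p = 0.314). Serping1, which blocks complement and contact proteases, differed by 0.50 and Serpinb9, an intracellular inhibitor, by -0.57 log2 units (limma, adjusted p = 0.481 and 0.703). Serpina1a, Serpina3n, Serpinb1a, Serpinb1b, Serpinb6a and Serpinb6b have near-identical relatives between which reads could be split, so their values are uncertain.

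**Figure D3:**
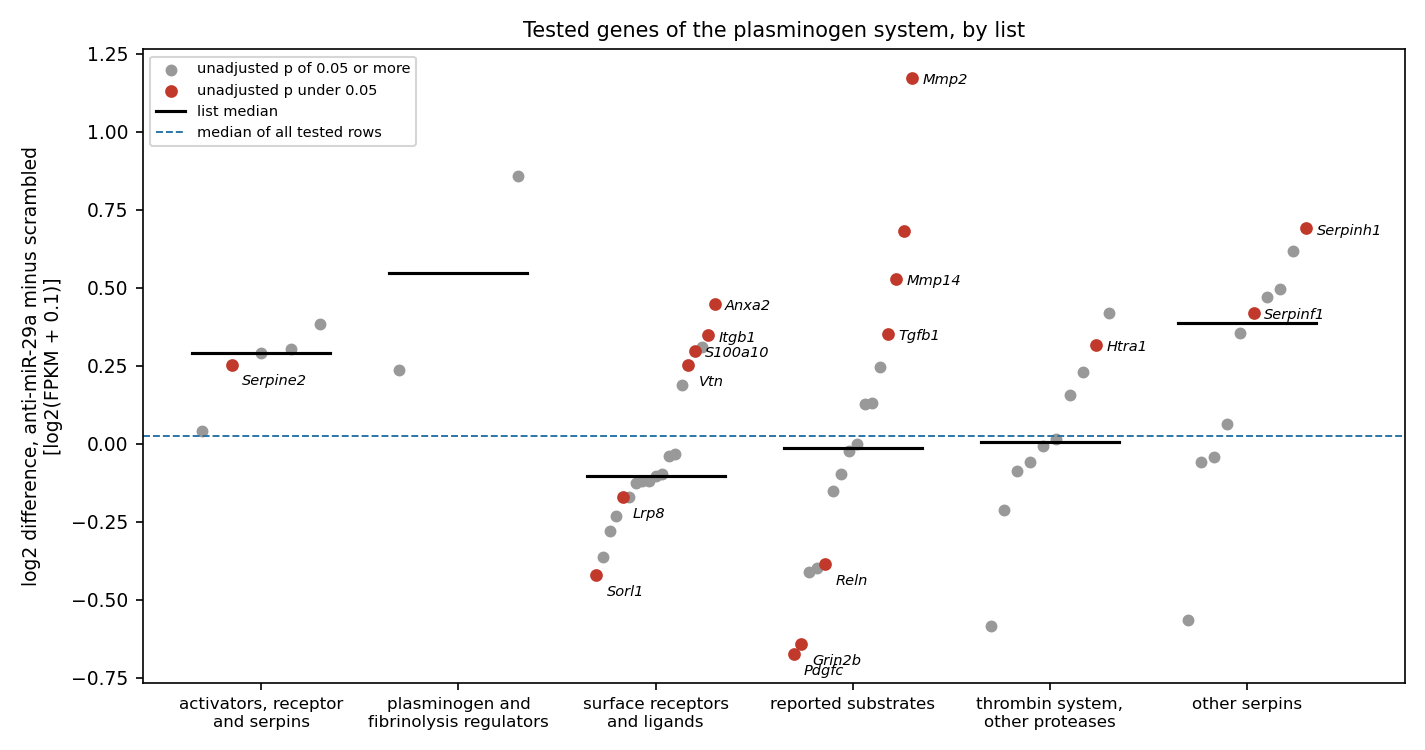
Log2 difference of each tested gene, anti-miR-29a minus scrambled, in 6 lists, with the list median (black bar) and the median of all tested rows (dashed, 0.026); red points had an unadjusted p under 0.05 and carry a name where the text gives their values. Serpine2 is the single red point among the 5 activator system genes, and Mmp2 at 1.17 is the highest of all the points.

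Markers of brain cell types were read in the same libraries. Of mature oligodendrocyte, oligodendrocyte precursor, endothelial and mural markers, 0 of 6, 2 of 6, 3 of 6 and 4 of 5 were higher (all tested rows 56.6%). Their medians were -0.18, -0.083, 0.067 and 0.12 log2 units. Fewer cells of a type and less RNA per cell cannot be told apart in tissue samples. Astrocyte markers, 6 genes of which 3 were higher and 2 of these, Gfap and Gja1, had an unadjusted p under 0.05 (limma; all tested rows 7.54% as higher), summed to 587.5 to 767.7 FPKM in scrambled and 600.1 to 933.8 FPKM in anti-miR-29a libraries, with Gfap at 168.9 ± 70.1 and 274.8 ± 98.8 FPKM and Slc1a2, the glial glutamate transporter, at 291.8 ± 16.2 and 292.2 ± 27.7 FPKM. The median of this list against its scrambled mean was 0.32, 0.081 and 0.26 log2 units in anti-miR-29a replicates 2, 3 and 4, where Serpine2 was high, and -0.078 in replicate 1, where it was not, but scrambled replicate 1 stood at 0.17 with Serpine2 at 0.046. Their part in the Serpine2 difference was not tested.

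Markers of meningeal and perivascular fibroblasts, 6 genes of which 5 were tested and all 5 were higher (all tested rows 56.6%), summed to 10.8 to 21.2 and 16.1 to 32.0 FPKM. Of these 5 genes 2 had an unadjusted p under 0.05 (limma; all tested rows 7.54% as higher). Activity-induced neuronal genes, 8 in all, summed to 344.3 to 693.1 FPKM in scrambled and 783.5 to 965.8 FPKM in anti-miR-29a libraries, and 7 of 8 were higher (all tested rows 56.6%), 6 of them at an unadjusted p under 0.05 (limma; all tested rows 7.54%). Plat is itself induced by neuronal activity in rat brain, and scrambled replicate 1 was the lowest library both for these markers, at -0.72 log2 units, and for Plat, at -0.25. Scrambled replicates 2, 3 and 4 stood at 0.21, 0.42 and 0.17 for the activity-induced genes, with Plat at 0.15, 0.13 and -0.022. Anti-miR-29a replicates 1 and 4 stood at 0.79 and 0.58 with Plat at 0.019 and 0.11. Replicates 2 and 3 of that group stood at 0.84 and 0.69 with Plat at 0.46 and 0.57. The part of neuronal activity in the Plat difference was not tested. Plat was 0.21 log2 units higher in the anti-miR-29a libraries without scrambled replicate 1 (limma, adjusted p = 0.647). Microglia markers, cells that can express Plau and Plaur, summed to 122.4 to 185.4 and 148.9 to 191.7 FPKM, of which C1qa made up 83.5 ± 16.1 and 102.9 ± 14.1 FPKM. Of the 6 microglia genes 3 were higher and 3 lower, with a median of -0.032 log2 units, and C1qa was the single one with an unadjusted p under 0.05 (limma). Markers of neutrophils and monocytes summed to 2.53 to 7.23 and 3.62 to 5.83 FPKM. The part of these cells in the differences was not tested.

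**Figure D4:**
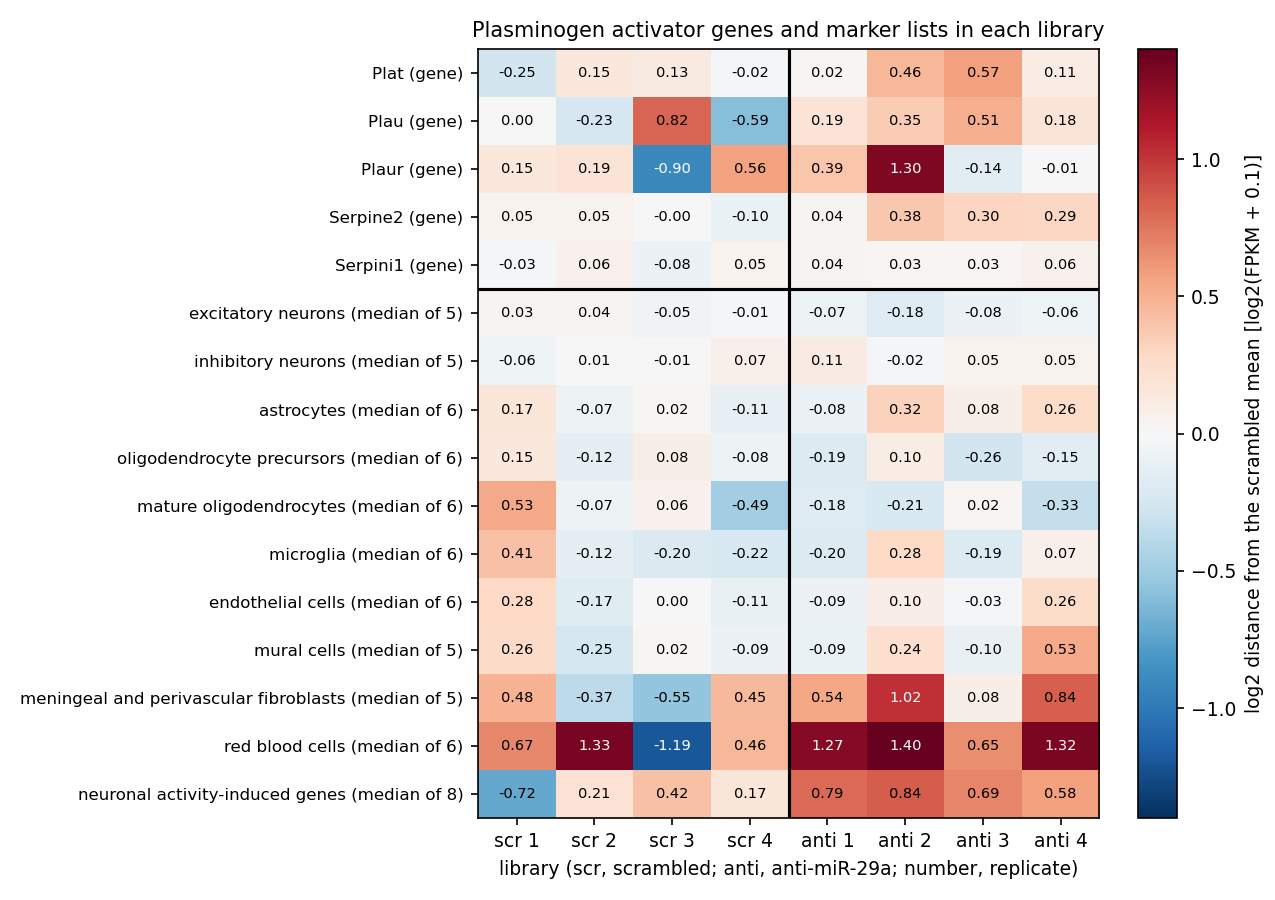
Log2 distance of each library from the scrambled mean for the 5 genes (top) and for the median of each marker list with at least 3 tested genes (bottom), in scrambled (scr) and anti-miR-29a (anti) replicates 1 to 4. Serpini1 stays within -0.082 and 0.061 throughout, and Serpine2 reaches 0.29 to 0.38 in anti-miR-29a replicates 2, 3 and 4.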

How the data were processed

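Per the labels' protocols, QIAzol-extracted RNA went into TruSeq v2 libraries, which keep no strand information, at about 30 M paired reads of 100 bases per sample. The submitters' processing notes name mm10, Cuffnorm, Bowtie and CASAVA 1.8.2, and neither the annotation nor the scaling setting is stated in them. The deposited values are FPKM in 1 column per library, with no read counts, so counting intervals were not computed.

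Values were taken as log2(FPKM + 0.1) for rows averaging 0.5 FPKM or more. The model in limma 3.58.1 (R 4.3.3) held only the group, and variances were moderated along a trend with expression. The fit was also run on simulated data with noise drawn independently for each gene and library. In those data no library stands apart as in the real ones, and no result here rests on that run. Exact permutation tests used all 70 relabellings of 1 gene's log2 values. Genes named are the 5, up to 4 of smallest p per list, the closest 3 by correlation, and up to 2 of highest mean per marker list; Anxa2, Lrp1, Lrp8, Mmp14, Tgfb1, Pdgfc, Gja1 and genes below the filter were named after their values were seen. The genes and lists were chosen with earlier results of these data known. Positions and 3′ UTRs came from GENCODE M21 and microRNA sequences from RefSeq (GRCm38.p6). A few genes that these rules select are not reported here.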

Additional observations from a re-analysis of the deposited data

Results flagged for a closer look

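Serping1 in scrambled replicate 1 read 7.76 FPKM, whereas the other 3 scrambled libraries read 3.55 to 4.02 FPKM, a gap of 0.889 of the whole range of the group, above Dixon's critical value for 4 samples. It was the only one of 46 groups of 4 checked that was set apart in this way, and chance alone sets apart about 1 in 20.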

How the results depend on the processing

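Of 88 recomputed differences of the 5 genes, 87 kept their direction and none passed the threshold, with a lowest adjusted p of 0.138 (limma). The exception in direction was Serpini1 under quantile normalization, at -0.0052. Plau and Plaur have no value at a mean of at least 5 FPKM. Leaving out 1 library gave 0.20 to 0.38 for Plat, 0.11 to 0.58 for Plau, 0.078 to 0.57 for Plaur, 0.21 to 0.33 for Serpine2 and 0.013 to 0.061 for Serpini1. The count of rows called, 2, became 1 with no filter on low values or a mean of at least 5 FPKM, 10 with robust empirical Bayes, and 1 to 3 with 1 library left out. It was 0 in limma after a correction for transcript length and GC content that was added with the data already seen, where 1142 rows had an unadjusted p under 0.05. Replicate numbers are not shown to pair the samples: same-numbered libraries correlated at -0.145 to 0.013, and 0 of 8 libraries correlated best with its own number. With the replicate number as a block, limma called 0 rows (1476 at an unadjusted p under 0.05), and Plat and Serpine2 had adjusted p of 0.36 and 0.354. No read counts were used here, so precision at the low levels of Plau and Plaur is set by the spread between libraries alone.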
